A study of Mus musculus with 11 samples.

Results

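Effector CD8+ T cells grown from naive cells were compared with effectors grown from central memory cells, both after a final stimulation of 4 h through CD3 and CD28. The comparison took 6 of the 11 arrays of the study, those titled as naive (CD44-), stimulated and as memory (CD44+), stimulated, with 3 arrays of each. Genes with a probe set of a single symbol were taken, and where a gene had several, the one brightest on average over the 11 arrays stood for it. This gave 18193 genes, and 14795 of them lay above a level for dim signal (1.54 on the log2 scale) on at least 2 arrays and were tested.

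Every group carried the pmel-1 transgene, a receptor specific for the melanocyte antigen gp100. Naive-derived effectors came from CD8+ T cells enriched as CD44-, and memory-derived effectors from cells enriched as CD44+. Both were activated on plate-bound antibodies to CD3 and CD28, restimulated with peptide on allogeneic feeder cells, and kept for 2 weeks in medium with interleukin 2 (10 cetus units). The stimulated groups then received CD3 and CD28 stimulation for 4 h, and unstimulated groups (2 naive-derived and 3 memory-derived arrays) did not. Arrays 1, 2 and 3 of a group came from 3 independent experiments, and all values below are log2 signals in that order, with 3 naive-derived and 3 memory-derived stimulated arrays.

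A naive CD8+ T cell that meets antigen divides and becomes an effector, which secretes cytokines and kills through granules that hold perforin and granzymes. A central memory cell has already been through such a response and recirculates through lymph nodes. Stimulation through CD3 and CD28 engages the T cell receptor and its main costimulatory receptor, and cytokine genes are transcribed within hours. Among mouse effectors, the receptor KLRG1, the integrin CD103, the T-box factors T-bet and eomesodermin and the inhibitory receptors are commonly used to tell subsets apart.

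The cells carried the defining markers of CD8 T cells: the summed linear signal of the 7 CD8 T cell markers on the array was 3020 to 3440 on naive-derived and 2650 to 2740 on memory-derived arrays. Cd4, of helper T cells, and the B cell genes Cd79a and Ms4a1 lay below the level for dim signal on all 6 arrays, as did S100a8, S100a9, Camp and Fcer1a of neutrophils and mast cells. Cpa3 and Mcpt8 of that last list lay above it on memory-derived arrays, at 4.72, 4.62 and 4.99 and at 3.34, 3.40 and 3.93. On naive-derived arrays Cpa3 lay above it too, at 3.28, 3.31 and 2.84, and Mcpt8 was at 2.61, 0.95 and 1.84. Both passed as lower in naive-derived cells (differences -1.63 and -1.76, adjusted p = 0.00261 and 0.0224, limma), while Elane, Mpo and Ngp did not pass. Summed signals of other cells' markers were small but differed: 41.3 to 54.8 against 25.6 to 29.1 for B cell genes, 61.6 to 81.6 against 107 to 116 for macrophage and dendritic cell genes, and 29.0 to 32.9 against 52.8 to 65.0 for neutrophil and mast cell genes, naive-derived first. The NK cell list, which includes Eomes, a gene CD8 T cells also use, stood at 18.1 to 29.7 against 179 to 222. Ncr1, which defines NK cells, was at 1.06 to 1.59 on the 6 arrays. Tyrobp of this list stood at 2.42, 1.43 and 1.77 against 3.60, 3.57 and 3.49 and passed as lower in naive-derived cells. Klra8, at 0.06, 0.52 and 0.79 against 1.77, 1.80 and 1.39, and Itga2 (difference 0.42) did not pass. The 3' minus 5' difference of actin, a sign of RNA quality (log10), was 0.782, 0.581 and 0.703 on naive-derived and 0.438, 0.520 and 0.431 on memory-derived arrays and did not overlap. The part of these differences in the results was not tested. Since whole cultures were measured, fewer cells of a type and less RNA per cell cannot be told apart.

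Origin separated the 6 arrays. The first principal component held 43.5% of the variance and placed the naive-derived arrays at 14.8, 26.6 and 26.3 and the memory-derived arrays at -23.4, -21.3 and -22.9. Naive-derived array 2 stood apart on the second component (20%), at -28.2 against 11.4 and 19.6 for the other naive-derived arrays. In all, 548 genes differed between the origins at an adjusted p below 0.05 (limma, Benjamini-Hochberg over 14795 genes), which is 3.7% of the genes tested. Of these, 250 were higher (1.69%) and 298 lower (2.01%) in naive-derived cells, and 2418 genes had an unadjusted p below 0.05. Scaling to the hybridization controls, which moved the median difference of all genes from -0.01 to -0.12, gave 137 higher and 303 lower genes, so the share that was higher went from 45.6% to 31.1%.

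The differences were moderate for most of these genes, with a median size of 0.94 on the log2 scale. At least 2-fold differences numbered 238 (1.61% of genes tested; 110 higher and 128 lower), and 48 were at least 4-fold (22 higher and 26 lower). For all 548 genes the 3 naive-derived and 3 memory-derived arrays did not overlap, against 25.7% of all genes tested. The calls were made on these same arrays, so the lack of overlap is no separate support for them. In 44 of them, 30 for naive-derived and 14 for memory-derived cells, 1 group lay wholly below the level for dim signal, and in 1 more both did. Leaving out memory-derived stimulated array 1, 2 or 3 lowered the count to 287, 322 and 298, and leaving out naive-derived stimulated array 3 to 306.

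**Figure D1:**
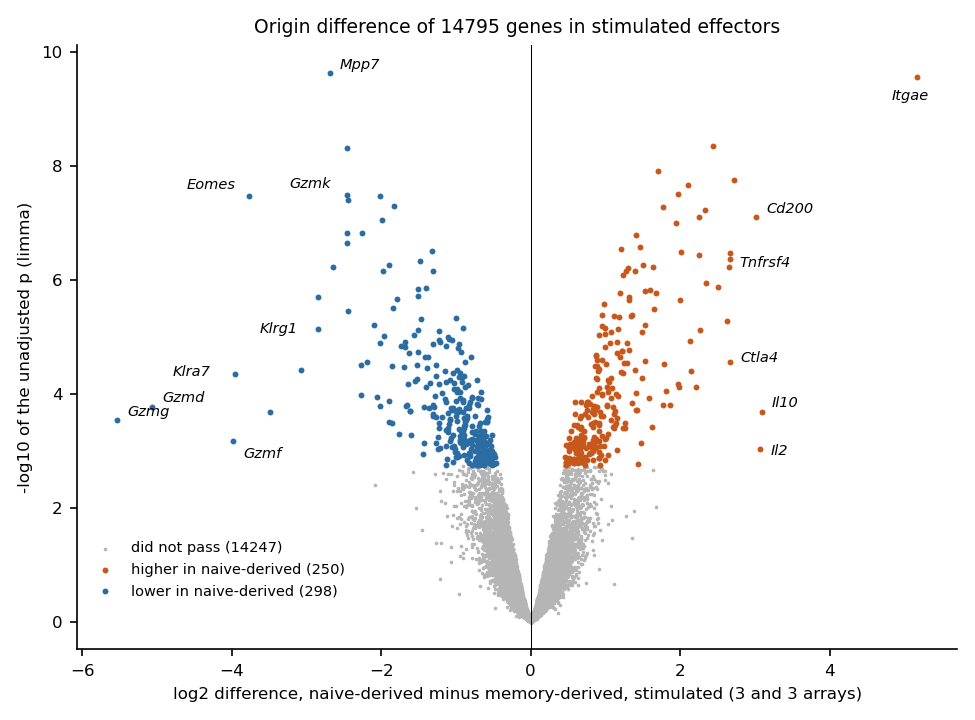
Difference between naive-derived and memory-derived stimulated effectors for 14795 genes. The horizontal axis is the log2 difference (3 and 3 arrays) and the vertical axis is -log10 of the unadjusted p from limma; coloured points passed at an adjusted p below 0.05 (250 higher, 298 lower). Itgae lies farthest to the right (5.17) and Gzmg farthest to the left (-5.53).

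Among genes higher in naive-derived effectors, Itgae, which encodes the CD103 integrin chain that binds E-cadherin on epithelia, had the largest difference. It stood at 7.25, 7.29 and 7.03 on naive-derived arrays and at 1.64, 2.15 and 2.28 on memory-derived arrays. The groups lay far apart, by 5.17 (SE 0.239, adjusted p = 2.07e-06), a 35.9-fold difference, and the gene passed in all 19 alternatives. Itgb7, its partner chain, was also higher, by 1.53 (SE 0.222; 6.26, 6.33 and 6.04 against 4.57, 4.91 and 4.55).

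Other genes in the top 12 came from several functions. Trib2, a pseudokinase, stood at 4.34, 4.35 and 4.30 against 1.55, 1.49 and 1.80 (difference 2.72). Enah, an actin regulator, was higher by 2.67, Cnn3, an actin-binding calponin, by 2.44 and Abca3, a lipid transporter, by 2.51. The lower group lay at the edge of detection for several genes named here and below, so the size and rank of their differences are uncertain: 1 of its 3 arrays was above the level for dim signal for Abca3, Id3, Il21, Klra7 and Dsc2, and 2 of 3 for Trib2, Enah, Btla, Slamf6 and Tyrobp. Ahr, the aryl hydrocarbon receptor, fell outside the 12 and stood at 5.76, 5.59 and 5.75 against 3.47, 3.11 and 3.74 (difference 2.26, adjusted p = 0.00148).

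**Figure D2:**
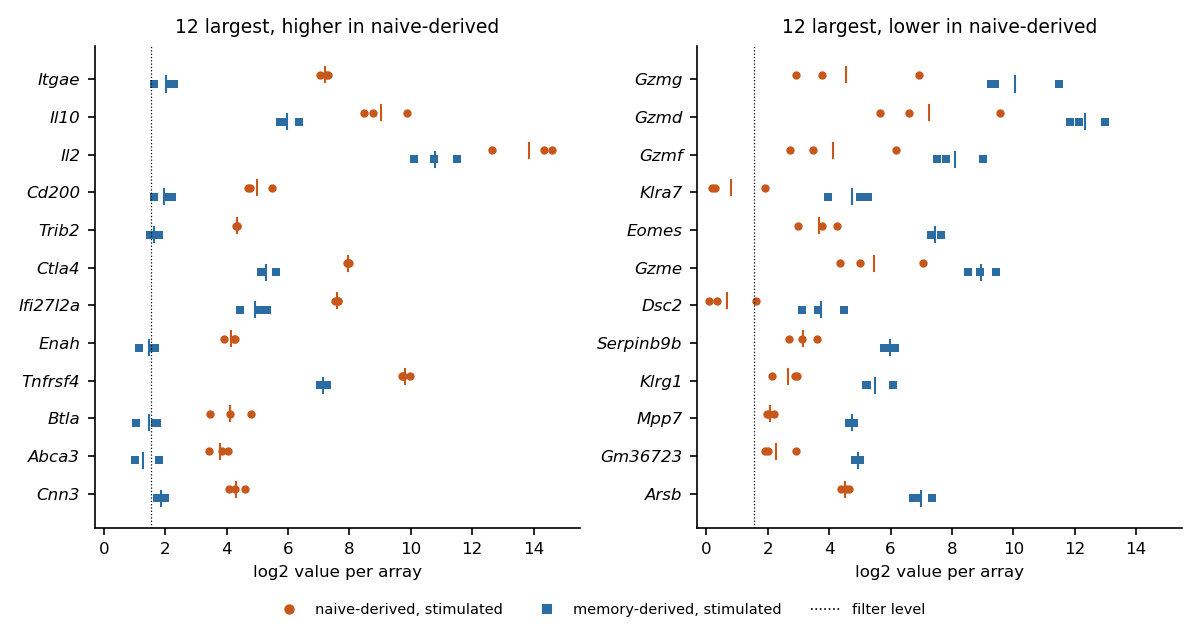
Log2 value on each array for the 12 largest differences in each direction. Circles are naive-derived and squares memory-derived stimulated arrays, short bars are group means and the dotted line is the level for dim signal (1.54). The genes were picked among those whose groups do not overlap. Naive-derived values of Gzmg, Gzmd and Gzmf are spread over more than 3 log2 units.

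Cytokine genes were split. Il2, the T cell growth factor, stood at 14.60, 12.65 and 14.33 on naive-derived and at 10.11, 10.76 and 11.50 on memory-derived arrays. Every naive-derived array was above every memory-derived one, and the difference was 3.07 (SE 0.68, adjusted p = 0.0314). This call depended on the fit: the adjusted p was 0.0647 with the replicate block, and 0.00798 to 0.121 over all alternatives. It was lost without naive-derived stimulated array 1 (0.0995) or 3 (0.113), without memory-derived stimulated array 1 (0.121), 2 (0.0935) or 3 (0.0517), and without memory-derived unstimulated array 1 (0.0505).

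Il10, an anti-inflammatory cytokine, stood at 9.87, 8.78 and 8.48 against 6.35, 5.72 and 5.80. The difference was 3.09 (SE 0.565, adjusted p = 0.012); leaving out memory-derived stimulated array 3 put the adjusted p at 0.0503. Il21, a cytokine that supports T and B cells, was higher by 1.40 (2.80, 2.36 and 2.76 against 0.86, 1.26 and 1.59). Lif, an interleukin 6 family cytokine, was higher by 1.48 (adjusted p = 0.0279), a call lost without memory-derived stimulated array 1 (0.111) or 2 (0.0777) and naive-derived stimulated array 2 (0.0531) or 3 (0.0905). In the other direction, Fgl2, a secreted inhibitor of T cells, stood at 3.56, 3.61 and 2.50 against 5.05, 4.77 and 4.76 (difference -1.64, adjusted p = 0.00613).

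Il1a, an inflammatory cytokine, was lower too, at 5.84, 5.04 and 4.89 against 6.04, 6.47 and 6.63 (difference -1.12, adjusted p = 0.0409). Its call held only without naive-derived stimulated array 1 or memory-derived unstimulated array 3 when 1 array was left out; the adjusted p was 0.0671 with the replicate block and 0.00973 to 0.147 over all alternatives. Thus 4 of the 23 secreted cytokine genes tested were higher and 2 lower, with a list median of 0.07 beside -0.01 for all genes. The counts became 2 and 1 without any 1 of memory-derived stimulated arrays 1, 2 and 3 or naive-derived stimulated array 3. Ifng, the main cytokine of CD8 effectors, stood at 13.42, 13.64 and 13.45 against 12.73, 12.22 and 12.22, which did not pass (difference 1.12, SE 0.849, adjusted p = 0.574). The groups did not overlap. The fitted spread took in memory-derived unstimulated array 3, where Ifng stood at 8.16 against 12.55 and 11.99 on the others; the adjusted p was 0.00953 without it and 0.0194 with only the compared arrays in the fit, in a range of 0.00953 to 0.731 over all alternatives. Tnf, another effector cytokine, overlapped (9.84, 9.44 and 10.50 against 9.51, 9.83 and 10.23; difference 0.07, SE 0.348), and its sign turned under control scaling (-0.03) and without memory-derived stimulated array 1 (-0.10) or naive-derived stimulated array 3 (-0.21).

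Chemokine genes gave 1 call among 15 tested: Cxcl2, a neutrophil chemokine, was lower (3.71, 3.07 and 2.86 against 4.44, 4.21 and 4.44; difference -1.15, adjusted p = 0.00912). With the replicate block, or without memory-derived unstimulated array 1 or 3, 2 chemokine genes were lower. The chemokines that CD8 effectors are best known for did not pass. Ccl3 stood at 13.64, 14.08 and 13.54 against 13.42, 13.45 and 13.30, and Ccl4 at 11.76, 12.44 and 11.59 against 11.07, 10.79 and 11.18.

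Granule genes showed the widest differences, and they ran in both directions. Granzymes are serine proteases that enter target cells through perforin; granzymes D, E, F and G are mouse genes of a cluster on chromosome 14, in the order Ctsg, Gzme, Gzmd, Gzmg, Gzmn, Gzmf, Gzmc, Gzmb and Atp12a in the RefSeq table of GRCm38.p6. Gzmd, Gzme, Gzmf and Gzmg are near-identical, and 2 of the probe sets read here (Gzmd, Gzme) are of the kind that the array design marks as able to bind other sequences, so signal may be shared among them. The windows of 250 bases before their start sites were 81.6% to 95.2% identical in pairs and held a stretch of 36 bases that stood in 4 of all 32851 such windows, those of these 4 genes. The windows of Gzmd, at chr14:56132594-56132843 (minus strand), Gzmf, at chr14:56211408-56211657 (minus strand), and Gzmg, at chr14:56159580-56159829 (minus strand), are shown because the genes move together, with the shared stretch in capitals (RefSeq, GRCm38.p6).
Gzmd: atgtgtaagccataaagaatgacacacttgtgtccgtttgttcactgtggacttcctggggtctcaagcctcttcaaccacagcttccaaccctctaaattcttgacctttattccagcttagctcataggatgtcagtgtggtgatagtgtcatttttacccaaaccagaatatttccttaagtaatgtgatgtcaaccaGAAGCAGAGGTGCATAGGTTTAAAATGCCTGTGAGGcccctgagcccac
Gzmf: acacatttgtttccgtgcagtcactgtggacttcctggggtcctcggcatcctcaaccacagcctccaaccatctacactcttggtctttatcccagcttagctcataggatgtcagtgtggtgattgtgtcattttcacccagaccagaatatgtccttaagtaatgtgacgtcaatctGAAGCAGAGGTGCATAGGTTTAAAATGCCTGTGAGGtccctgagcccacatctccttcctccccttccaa
Gzmg: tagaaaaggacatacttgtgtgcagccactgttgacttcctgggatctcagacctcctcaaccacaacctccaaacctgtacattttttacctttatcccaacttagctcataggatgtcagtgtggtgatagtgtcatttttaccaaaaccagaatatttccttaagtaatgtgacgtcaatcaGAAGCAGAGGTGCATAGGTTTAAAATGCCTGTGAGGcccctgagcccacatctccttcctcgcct

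Gzmd, Gzme, Gzmf and Gzmg were all lower in naive-derived effectors. The stretch was looked for in these 4 genes because they move together, so a link between it and the decrease was not tested. Gzmg stood at 6.93, 3.75 and 2.92 against 9.29, 9.39 and 11.48 (difference -5.53, SE 1.06, adjusted p = 0.0154). Gzmd stood at 9.56, 6.60 and 5.64 against 11.85, 12.15 and 12.98 (difference -5.06, SE 0.905, adjusted p = 0.011). Gzmf stood at 6.19, 3.48 and 2.71 against 7.50, 7.81 and 9.0 (difference -3.98, SE 0.846). Naive-derived array 1 was the highest of its group for each of these genes, and the groups did not overlap. Gzme stood at 7.06, 5.02 and 4.35 against 8.53, 8.91 and 9.45 (difference -3.48, SE 0.638, adjusted p = 0.012).

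The spread within naive-derived cells made some of these calls depend on single arrays. Gzmg was lost without naive-derived stimulated array 2 (adjusted p = 0.0577) or 3 (0.0648) or memory-derived stimulated array 3 (0.0638). Gzmf, at an adjusted p of 0.0268, was lost without naive-derived stimulated array 2 (0.0897) or 3 (0.098) or memory-derived stimulated array 1 (0.0583), 2 (0.0659) or 3 (0.103). Gzme was lost without memory-derived stimulated array 3 (0.0537), while Gzmd passed in every case.

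Values of the neighbours in the cluster were as follows. Gzmb, granzyme B, the main caspase-activating granzyme, was higher in naive-derived cells, at 13.54, 13.57 and 13.27 against 12.75, 12.58 and 12.80. Its difference of 0.76 (SE 0.133, adjusted p = 0.0106) did not pass under control scaling (adjusted p = 0.0829) or without memory-derived stimulated array 2 (0.0516), in a range of 0.0043 to 0.0829 over all alternatives. Gzmc was at 10.20, 9.51 and 9.12 against 10.79, 10.37 and 10.65 and did not pass (difference -0.99, adjusted p = 0.0625). Gzmn passed at -0.97, but it lay below the level for dim signal on all naive-derived arrays (0.66, 0.51 and 0.71 against 1.36, 1.68 and 1.76).

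Outside the cluster, Gzmk, a granzyme of early memory-type cells, was 3.91, 3.95 and 3.61 against 6.41, 6.22 and 6.21 (difference -2.45, SE 0.178, adjusted p = 4.61e-05). Gzma, granzyme A, did not pass (13.72, 14.60 and 13.68 against 13.48, 13.32 and 13.32; difference 0.63, adjusted p = 0.157). Prf1, which encodes perforin, was lower, at 8.25, 8.11 and 7.27 against 9.84, 9.69 and 9.80. Its difference of -1.90 (SE 0.366, adjusted p = 0.0161) was lost without memory-derived stimulated array 1 (0.0624) or 3 (0.0561) or naive-derived stimulated array 3 (0.0642). Serpinb9b, of the family of granzyme inhibitors, was also lower (3.61, 3.12 and 2.68 against 6.13, 6.02 and 5.80; difference -2.84, adjusted p = 0.000556). The granule list thus had 1 of 25 genes higher and 8 lower, with a median of -0.26, and 3 lower without memory-derived stimulated array 3.

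Transcription factors of effector and memory fate differed in single members. Eomes, a T-box factor of memory and NK cells, stood at 3.76, 4.26 and 2.97 on naive-derived and at 7.65, 7.33 and 7.33 on memory-derived arrays. The nearest arrays of the groups were more than 3 log2 units apart, and the difference was -3.77 (SE 0.275, adjusted p = 4.61e-05). Tbx21, which encodes the related factor T-bet, was at 7.16, 7.02 and 7.34 against 6.68, 6.60 and 6.63, without overlap, and did not pass (difference 0.54, SE 0.137, adjusted p = 0.0564). It passed in 4 of 19 alternatives, among them the case without memory-derived unstimulated array 3 (0.0427), in a range of 0.0229 to 0.251.

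The inhibitors of E proteins went opposite ways. Id3, linked to memory precursors, was higher (3.11, 3.23 and 4.09 against 1.24, 1.13 and 1.63; difference 2.14, adjusted p = 0.00426). Id2, linked to effector differentiation, was lower (10.07, 9.55 and 9.63 against 10.95, 10.73 and 10.84; difference -1.09, adjusted p = 0.0168). The Id2 call was lost without memory-derived stimulated array 1 (0.0743) or 3 (0.0583) or naive-derived stimulated array 2 (0.0612) or 3 (0.0693), and 1 of its 2 other probe sets tested had the opposite sign.

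Among 30 effector and lineage factors tested, 4 were higher and 3 lower, with a median of 0.13 (3 and 1 without memory-derived stimulated array 3). Pou2af1, a coactivator best known in B cells, was higher by 1.41, Ikzf3, the lymphoid factor Aiolos, by 1.00, Batf, an AP-1 factor of effector cells, by 0.89 and Stat4, which transmits interleukin 12 signals, by 0.65. Nfil3 was lower by -0.83. Genes of naive and memory cells gave 4 higher and 0 lower of 23 tested, with a median of 0.15: besides Id3, these were Slamf6, a receptor of stem-like T cells (3.36, 3.65 and 4.78 against 1.53, 2.31 and 2.36; difference 1.86), Actn1, an actinin gene (difference 1.29), and Foxp1, a factor of quiescence (difference 0.51). The Foxp1 call (adjusted p = 0.0399) held only without naive-derived stimulated array 2 or memory-derived unstimulated array 3 when 1 array was left out; its adjusted p was 0.0695 with the replicate block and 0.014 to 0.315 over all alternatives.

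The best known markers of naive and memory state did not pass. Cd44, on which the starting cells were split, stood at 8.95, 8.57 and 9.23 against 9.54, 9.81 and 9.78 (difference -0.79, SE 0.229, adjusted p = 0.0936). Il7r, the interleukin 7 receptor chain, was at 4.68, 5.06 and 4.52 against 6.03, 5.30 and 5.17 (difference -0.75, adjusted p = 0.194). Differences were -0.31 for Ccr7, a lymph node homing receptor, 0.27 for Cd27, a costimulatory receptor, 0.22 for Lef1, a factor of naive cells, and -0.28 for Prdm1, the effector factor Blimp-1, with adjusted p from 0.392 to 0.653. Their SEs were 0.168 to 0.248, so differences of these sizes could not be told from 0 here.

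Inhibitory receptors were the receptor group with the most higher genes. Pdcd1, which encodes PD-1, stood at 7.51, 7.51 and 7.83 against 5.53, 5.49 and 5.79 (difference 2.01, SE 0.184, adjusted p = 0.00018). Ctla4, which competes with CD28 for its ligands, stood at 7.93, 7.94 and 7.97 against 5.61, 5.12 and 5.12 (difference 2.67, SE 0.387, adjusted p = 0.00339). Lag3, a receptor for class II molecules, stood at 6.68, 6.82 and 7.08 against 4.78, 4.97 and 4.92 (difference 1.97, SE 0.143). For all 3 genes the naive-derived arrays lay more than 1.5 log2 units above the memory-derived ones.

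Btla, another inhibitory receptor, was 3.44, 4.09 and 4.79 against 1.72, 1.67 and 1.04 (difference 2.63), and Cd200, a ligand that restrains myeloid cells, 4.77, 4.69 and 5.49 against 2.20, 2.07 and 1.64 (difference 3.02, adjusted p = 6.96e-05). Entpd1, the ectonucleotidase CD39, was the exception, at 3.84, 3.90 and 3.37 against 4.72, 4.52 and 4.61 (difference -0.91). Havcr2, which encodes TIM-3, did not pass (difference -0.24, adjusted p = 0.732). In total 5 of 18 inhibitory receptors and ligands tested were higher and 1 lower, with a median of 0.26. These counts of 5 and 1 were the same under the replicate block, under control scaling and whichever single array was left out.

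Costimulatory and activation receptors gave a few strong members. Tnfrsf4, the costimulatory receptor OX40, stood at 9.76, 9.98 and 9.71 against 7.04, 7.27 and 7.15 (difference 2.66, SE 0.258, adjusted p = 0.000246). It was the 1 gene of 15 in the costimulatory TNF family that passed. Of 19 activation surface markers, 4 were higher and 2 lower: Cd86, a ligand of CD28, by 2.00 (3.80, 4.04 and 4.48 against 2.36, 1.60 and 2.37), Cd24a, by 1.81, Slamf1, by 1.77, and Cd9, a tetraspanin, by 1.30 (6.77, 6.54 and 6.72 against 5.29, 5.49 and 5.36).

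The 2 activation markers that were lower were Cd28 itself (5.43, 5.68 and 5.27 against 6.38, 6.47 and 6.67; difference -1.05) and Cd48, an adhesion ligand (difference -0.69). Cd28 did not pass with the replicate block (adjusted p = 0.0559, against 0.0302). The counts were 4 and 0 without memory-derived stimulated array 1 or 2, 4 and 1 without memory-derived stimulated array 3 or naive-derived stimulated array 1, and 3 and 0 without naive-derived stimulated array 3. Slamf1 (adjusted p = 0.0108) reached 0.0503 without that array. Il2ra, the interleukin 2 receptor alpha chain and a standard sign of activation, was at 8.80, 8.62 and 8.89 against 8.82, 8.83 and 8.88; the values overlapped, the difference was -0.07 (SE 0.332), and it was 0.01 without naive-derived stimulated array 2.

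NK-type receptors that differed were mostly lower in naive-derived effectors. Klrg1, a lectin receptor of terminally differentiated effectors, stood at 2.90, 2.94 and 2.14 against 5.21, 5.22 and 6.08 (difference -2.84, SE 0.357, adjusted p = 0.00145). Klra7, an inhibitory Ly49 receptor of a near-identical family whose members the probes may not tell apart, stood at 0.28, 1.91 and 0.17 against 5.27, 5.02 and 3.96 (difference -3.96, SE 0.608). Klre1, another lectin receptor, was lower by -2.44, and Tyrobp, the adaptor DAP12, by -1.68. Each of these genes passed in all 19 alternatives, and none had overlapping groups.

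Cd160, a receptor of activated CD8 T and NK cells, ran the other way, at 9.80, 9.81 and 10.06 against 8.05, 8.21 and 8.50 (difference 1.64, SE 0.159), as did Cd7 at a lower level (difference 0.66). The list had 2 genes higher and 4 lower of 18 tested, and its median was -0.22. The higher count was 1 under control scaling and without any 1 of memory-derived stimulated arrays 1, 2 and 3, naive-derived stimulated arrays 1 and 3 and memory-derived unstimulated array 1. Klrd1 and Klrc1, whose products pair as CD94 and NKG2A, did not pass (differences -0.33 and -0.94). The genes of CD8 itself were higher: Cd8a stood at 8.99, 9.33 and 8.87 against 7.82, 7.87 and 7.81 (difference 1.23, SE 0.188, adjusted p = 0.0045). Cd8b1 was higher by 0.60 (adjusted p = 0.00997), which did not pass under control scaling (0.19) or without memory-derived stimulated array 1 (0.0532), in a range of 0.00278 to 0.19 over all alternatives.

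Cytokine receptors gave 3 higher genes and 1 lower of 31 tested, with a median of 0.08. Il1r2, a decoy receptor for interleukin 1, stood at 5.54, 5.31 and 5.45 against 3.69, 3.82 and 3.98 (difference 1.60, SE 0.171), and Il12rb1, a chain of the interleukin 12 receptor, was higher by 1.27. Both held in all 19 alternatives. Il15ra was higher by 0.76 and Il2rb, the chain shared by the interleukin 2 and 15 receptors, lower by -0.79 (6.93, 6.69 and 6.79 against 7.55, 7.64 and 7.60). These calls were weaker: without memory-derived stimulated array 1 or 3 or naive-derived stimulated array 3 the list gave 2 higher and 0 lower, and Il15ra had an adjusted p of 0.0525, 0.0526 and 0.0535 in those cases.

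Of 24 homing receptors, Gpr18, a lipid receptor of intraepithelial T cells, was higher (6.75, 6.88 and 6.79 against 6.03, 5.80 and 5.59; difference 1.00) and Ccr2, a receptor for inflammatory chemokines, was lower (4.11, 4.12 and 3.86 against 5.45, 5.30 and 5.18; difference -1.28). Of the 3 other Ccr2 probe sets tested, 2 had the same sign. Adhesion genes other than the CD103 chains leaned lower. Of 28 tested, 3 were higher (Itgae, Itgb7 and Cd2, an adhesion receptor, by 0.81) and 4 lower, with a median of -0.20. The lower ones were Itgax, an integrin chain, at 4.81, 4.13 and 4.13 against 5.72, 5.41 and 5.62 (difference -1.23), St3gal6, a sialyltransferase for selectin ligands (-1.18), Selplg, the P-selectin ligand (-0.90, adjusted p = 0.0302; the replicate block gave 0.0636), and Itgb1 (-0.83). None of these 4 passed without memory-derived stimulated array 3 or naive-derived stimulated array 3, where the list gave 2 higher and 0 lower; it gave 2 and 2 without memory-derived stimulated array 1, and 2 and 1 without memory-derived or naive-derived stimulated array 2.

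Genes of the S100, annexin and galectin families, which are abundant in effector cells, leaned lower as well: 19 of 22 tested had a difference below 0, the median was -0.35, and 4 passed, all lower. Anxa3 stood at 1.87, 1.75 and 1.91 against 3.75, 3.44 and 3.83 (difference -1.83, SE 0.139, adjusted p = 5.51e-05). Anxa2 was lower by -1.09, though its other probe set had the opposite sign, Lgals1, galectin 1, by -0.81 (13.02, 12.80 and 12.53 against 13.54, 13.68 and 13.57) and S100a10, a partner of annexin A2, by -0.64 (adjusted p = 0.0284, and 0.0516 with the replicate block, in a range of 0.0122 to 0.116). Without naive-derived stimulated array 1 the list had 1 higher and 7 lower genes. All 8 GIMAP genes, small GTPases of lymphocytes, had differences below 0 (median -0.21), and Gimap6 passed (difference -0.66), though its other probe set had the opposite sign and its call was lost without any 1 of the 6 stimulated arrays (adjusted p 0.0605 to 0.106).

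Interferon response genes were the list with the most genes that passed. Of 30 genes tested from a list of the type I interferon response, 13 were higher in naive-derived effectors and 0 lower. In 24 the difference was above 0, and the median was 0.54 beside -0.01 for all genes. Ifi27l2a, an interferon-induced mitochondrial protein, stood at 7.64, 7.53 and 7.63 against 5.04, 5.32 and 4.43 (difference 2.67, SE 0.25, adjusted p = 0.000215). Gbp2, a guanylate-binding protein that acts on intracellular microbes, stood at 6.73, 6.71 and 7.36 against 4.45, 4.71 and 4.90 (difference 2.25, SE 0.208, adjusted p = 0.000191). Isg20, an exonuclease, stood at 6.62, 6.63 and 6.65 against 5.16, 5.22 and 5.34 (difference 1.40), and Zbp1, a sensor of nucleic acids, at 4.75, 4.57 and 4.82 against 3.39, 3.23 and 3.29 (difference 1.41).

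The other 9 were the RNA sensors and antiviral enzymes Oas1a (difference 1.35) and Ifih1 (1.32), the immunity-related GTPases Ifi47 (1.21), Igtp (1.07) and Irgm1 (0.92), and Trim30a (0.92), Rtp4 (0.85), Xaf1 (0.80) and Bst2 (0.62). The count was 11 with the replicate block, without Trim30a (adjusted p = 0.0741) and Xaf1 (0.0671), 9 with control scaling, and 8 without memory-derived stimulated array 3 or naive-derived stimulated array 3. Members that type I interferon induces strongly elsewhere were not among them: Ifit1 stood at 1.50, 0.79 and 1.89 against 1.64, 1.52 and 1.80, near the level for dim signal, and Mx1 at 2.08, 1.51 and 1.80 against 2.47, 2.36 and 2.17 (difference -0.53, adjusted p = 0.32). Irf7, a factor that amplifies the response, had a difference of 0.47 (adjusted p = 0.212). The list bears the name of type I interferon, and which interferon, if any, acted on the called genes was not tested.

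The core of the interferon-stimulated response element, GAAA, any 2 bases and GAAA on either strand, stood in the window of 250 bases before the start site for 2.98% of 32851 windows of all genes and for 2.63% of windows of genes tested. It stood in 6 of 13 windows (46.2%) of the 10 called interferon genes that had one, in 6.79% of windows of all genes higher in naive-derived cells and in 2.08% of those of genes lower. The windows of the called interferon genes are part of those of all higher genes, so these shares are not independent. No share was taken for interferon genes that did not pass, so a link between the element and the calls was not tested. The windows of Gbp2, at chr3:142620413-142620662 (plus strand), Igtp, at chr11:58199306-58199555 (plus strand), Irgm1, at chr11:48871421-48871670 (minus strand), and Oas1a, at chr5:120907526-120907775 (minus strand), are printed with the matches in capitals to show where the element lies (RefSeq, GRCm38.p6). In each of these printed windows it stands in the last 70 bases before the start site. The windows of Bst2 and Trim30a, which also hold it, are not printed, and in that of Bst2 it lies farther than 70 bases from the start site. A match is a description of letters, and binding was not measured.
Gbp2: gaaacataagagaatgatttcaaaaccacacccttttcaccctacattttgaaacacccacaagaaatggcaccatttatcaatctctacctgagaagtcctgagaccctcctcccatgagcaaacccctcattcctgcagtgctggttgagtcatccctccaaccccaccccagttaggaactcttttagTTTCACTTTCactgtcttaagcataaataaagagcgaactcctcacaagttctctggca
Igtp: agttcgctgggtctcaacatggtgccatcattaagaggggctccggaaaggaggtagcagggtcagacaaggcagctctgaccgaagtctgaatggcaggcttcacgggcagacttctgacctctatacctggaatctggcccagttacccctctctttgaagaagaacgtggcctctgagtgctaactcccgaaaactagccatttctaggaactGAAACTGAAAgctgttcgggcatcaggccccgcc
Irgm1: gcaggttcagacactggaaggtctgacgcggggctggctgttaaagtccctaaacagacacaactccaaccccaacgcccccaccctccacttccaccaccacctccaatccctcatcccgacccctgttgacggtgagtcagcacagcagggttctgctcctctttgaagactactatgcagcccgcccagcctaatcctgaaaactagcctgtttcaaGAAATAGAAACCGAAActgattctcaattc
Oas1a: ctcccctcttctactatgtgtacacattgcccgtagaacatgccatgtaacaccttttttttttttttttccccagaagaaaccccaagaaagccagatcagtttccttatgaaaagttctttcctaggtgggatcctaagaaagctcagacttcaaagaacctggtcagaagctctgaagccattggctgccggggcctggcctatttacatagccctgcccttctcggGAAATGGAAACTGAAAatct

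Antigen presentation genes leaned the same way with smaller differences. Of 18 genes of class I loading and the immunoproteasome, 4 were higher and 0 lower, with a median of 0.32. Tap1, the peptide transporter, stood at 6.14, 6.09 and 6.66 against 4.86, 4.94 and 5.35 (difference 1.24, adjusted p = 0.0187), though its other probe set had the opposite sign. Psmb9 and Psmb10, immunoproteasome subunits, were higher by 0.78 and 0.74, and Tapbp, tapasin, by 0.58. The group was sensitive to single arrays: 0 passed without memory-derived stimulated array 1 (limma; 10 had an unadjusted p below 0.05 with all arrays), 1 without memory-derived stimulated array 2, naive-derived stimulated array 3 or under control scaling, and 2 without memory-derived stimulated array 3 or naive-derived stimulated array 1 or 2.

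Class II presentation genes, which mouse T cells hold at low levels, were higher for 4 of 9 tested, with a median of 0.61. They were H2-DMa (3.13, 3.14 and 3.01 against 2.27, 1.96 and 1.62; difference 1.14), whose other probe set had the opposite sign, Ctss, the protease cathepsin S (6.44, 6.96 and 6.34 against 5.61, 5.60 and 5.46; difference 1.02), Cd74, the invariant chain (difference 0.95), and H2-Oa (0.61; adjusted p = 0.0293, and 0.0584 with the replicate block, in a range of 0.0122 to 0.253). Cd74 and H2-Oa were lost without naive-derived stimulated array 2 or 3 or memory-derived stimulated array 3, so the count was 2 in those cases and under control scaling. The summed signal of B cell markers moved with these genes, and that of macrophage and dendritic cell markers moved against them, as given above. Cd74 is itself in that second list. In the B cell list Ighm alone passed, and Cd79a and Ms4a1 lay below the level for dim signal on all 6 arrays.

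Death genes were higher where they differed. Casp4, an inflammatory caspase, stood at 6.47, 6.66 and 6.78 against 4.32, 4.33 and 4.51 (difference 2.25, SE 0.179, adjusted p = 6.96e-05), and Casp1, its partner in inflammatory death, at 4.23, 4.68 and 4.33 against 2.92, 2.85 and 2.94 (difference 1.51). Fas, the death receptor, was higher by 1.03. Fasl, its ligand, was higher by 0.58 (7.58, 7.58 and 7.47 against 6.95, 7.04 and 6.92), a call lost under control scaling (adjusted p = 0.229; range over alternatives 0.00476 to 0.229) and without naive-derived stimulated array 1 (0.0531) or 2 (0.051) or memory-derived stimulated array 1 (0.0759), 2 (0.0506) or 3 (0.0759). The list had 4 higher and 0 lower of 17. The BCL2 family, which sets the threshold of mitochondrial death, gave 0 of 16 (limma; 4 at an unadjusted p below 0.05).

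Signalling lists gave few calls in number. The share called was 14.3% for the T cell receptor list and 12.5% for calcium genes, against 3.7% of all genes tested. For the other lists of this paragraph it was 0% to 5.88%. The T cell receptor list had 2 of 28 higher, both chains of CD8, and 2 lower: Txk, a TEC family kinase (3.63, 3.36 and 2.64 against 5.00, 4.77 and 4.96; difference -1.70), and Grap2, an adaptor (-1.43), with 1 and 1 left without memory-derived stimulated array 1. Calcium genes gave 2 higher and 1 lower of 24: Kcna3, the potassium channel that sustains calcium entry, by 1.12, Camk2d by 0.90 and Camk4 by -0.68; without memory-derived stimulated array 1, 1 was higher and 0 lower. Of 31 immediate early genes, Ier3, an immediate early survival gene, was the 1 that passed, and it was lower (7.28, 6.47 and 7.02 against 9.26, 8.90 and 9.16; difference -2.19, SE 0.316, adjusted p = 0.00339). Without memory-derived unstimulated array 2 the list had 1 higher and 2 lower genes, and without array 3 of that group 0 and 2. The NF-kappaB list had 0 of 24 (limma; 2 at an unadjusted p below 0.05), with Nfkbia, the main inhibitor, at 9.71, 9.66 and 9.67 against 8.99, 8.95 and 8.96 (difference 0.71, adjusted p = 0.0541); without memory-derived unstimulated array 1 or 3, 1 gene was higher. Single calls came from signalling brakes (Spry2, -1.08, of 33), TGF-beta signalling (Tgfbr2, -0.60, of 25), mRNA decay (Zfp36l1, 1.03, of 17) and Polycomb and DNA methylation (Cbx7, 0.47, of 21). Each depended on single arrays, and the Spry2 and Zfp36l1 calls were lost without memory-derived stimulated array 1 or 2 or naive-derived stimulated array 3, and Spry2 also without memory-derived stimulated array 3 or naive-derived stimulated array 2 and Zfp36l1 without naive-derived stimulated array 1. Tgfbr2 passed only without memory-derived unstimulated array 2 or 3 when 1 array was left out, and Cbx7 (0.0776 with the replicate block) only without memory-derived unstimulated array 3.

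Most growth and division lists had 0 calls after stimulation. Of 44 mitosis genes, 0 passed (limma; 3 at an unadjusted p below 0.05) and the median was 0.12; by experiment it was -0.09, 0.51 and -0.11, so experiment 2 alone stood above 0.2. DNA replication gave 0 of 43 (4 unadjusted, median 0.16), ribosome biogenesis 0 of 39 (0 unadjusted, median 0.12) and aminoacyl-tRNA synthetases 0 of 19 (0 unadjusted, median 0.09). Amino acid response genes gave 0 of 33 (8 unadjusted, median 0.06), the unfolded protein response 0 of 31 (3 unadjusted, 0.07), the MYC network 0 of 19 (2 unadjusted, -0.01) and proteasome subunits 0 of 31 (3 unadjusted, 0.05). Without memory-derived unstimulated array 3, which enters only through the shared spread, 3 amino acid response genes were higher, and without naive-derived stimulated array 2, 1 was.

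Metabolic lists gave few calls in number. The share called was 14.8% for sterol and fatty acid synthesis and 6.67% for glycolysis and hypoxia, against 3.7% of all genes tested. It was 4.0% for fatty acid oxidation and 0% for oxidative phosphorylation. Oxidative phosphorylation had 0 of 38 (limma; 3 at an unadjusted p below 0.05). Of 30 glycolysis and hypoxia genes, Ndrg1 (8.27, 7.52 and 8.0 against 6.65, 6.63 and 6.28; difference 1.41) and Egln3, an oxygen-sensing hydroxylase (difference 1.11), were higher; 1 was without memory-derived or naive-derived stimulated array 3, and 3 were, with 1 lower, without memory-derived unstimulated array 3. Of 27 sterol and fatty acid synthesis genes, Elovl6 was higher by 0.93, and Scd2, a desaturase (-1.06), Idi1 (-0.65) and Hmgcs1 (-0.62), enzymes of the mevalonate pathway, were lower. With the replicate block 1 was higher and 1 lower (adjusted p 0.0646 for Idi1 and 0.0594 for Hmgcs1). None of the 3 lower genes passed without array 1 or 3 of either stimulated group, and 1 did without naive-derived unstimulated array 1 or 2. Fatty acid oxidation had Acsl4 lower (-0.67, adjusted p = 0.0403) as the 1 call of 25, lost without any 1 of the 6 stimulated arrays (0.0531 to 0.133) or naive-derived unstimulated array 1 or 2 (0.0623).

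Lysosome genes moved in both directions, with 3 of 31 higher and 6 lower and a median of -0.18. Ctsl, the protease cathepsin L, stood at 5.28, 4.50 and 5.46 against 3.39, 3.67 and 3.43 (difference 1.59), and Ctsz was higher by 0.91 besides Ctss. Ctsd, cathepsin D, was lower (6.07, 6.02 and 5.43 against 7.03, 7.01 and 7.38; difference -1.30), as were Cd68 (-1.30), Npc1, a cholesterol transporter (-1.05), Scarb2 (-0.68), Laptm5 (-0.67) and Naglu (-0.65). With the replicate block Naglu (adjusted p = 0.0529) and Scarb2, just above 0.05, did not pass. Ribosomal proteins had 1 of 27 higher (Rps2, 0.58) and 2 lower (Rps20, -0.72, and Rps15, -0.58, which was 0.07 as the mean of all its probe sets), and genes of the first growth phase and quiescence had 1 of 29 higher (Slfn2, 0.61) and 2 lower (Btg1, -1.11, and Ms4a4b, -0.87). Those 2 lists had no call without memory-derived stimulated array 1, and 0 or 1 each without array 2 or 3 of either stimulated group; with the replicate block Rps2 (0.0516), Rps20 (0.0669) and Slfn2 (0.0683) did not pass. The other Ms4a4b probe set tested had the opposite sign, and not all other probe sets of Btg1 and Rps20 had the sign of the call. The lower lysosomal count was 2 without memory-derived stimulated array 1 or 2 and 1 without array 3. Cd68 is also a macrophage marker, and the macrophage list moved the same way. Arsb, a lysosomal sulfatase not in the list, was among the 12 largest decreases (4.56, 4.66 and 4.37 against 6.87, 6.74 and 7.34; difference -2.46, adjusted p = 0.000149), although 1 of its 2 other probe sets had the opposite sign.

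The remaining genes among the 12 largest decreases were Mpp7, Dsc2 and Gm36723. Mpp7, a scaffold of cell polarity, stood at 2.19, 1.97 and 2.04 against 4.78, 4.81 and 4.66 (difference -2.69, SE 0.122, adjusted p = 2.07e-06), with arrays of each group within 0.3 of each other. Dsc2, a desmosomal cadherin, stood at 1.63, 0.33 and 0.08 against 3.11, 3.64 and 4.49 (difference -3.07). Gm36723 stood at 2.91, 1.90 and 2.02 against 4.99, 4.85 and 4.93 (difference -2.65).

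**Figure D3:**
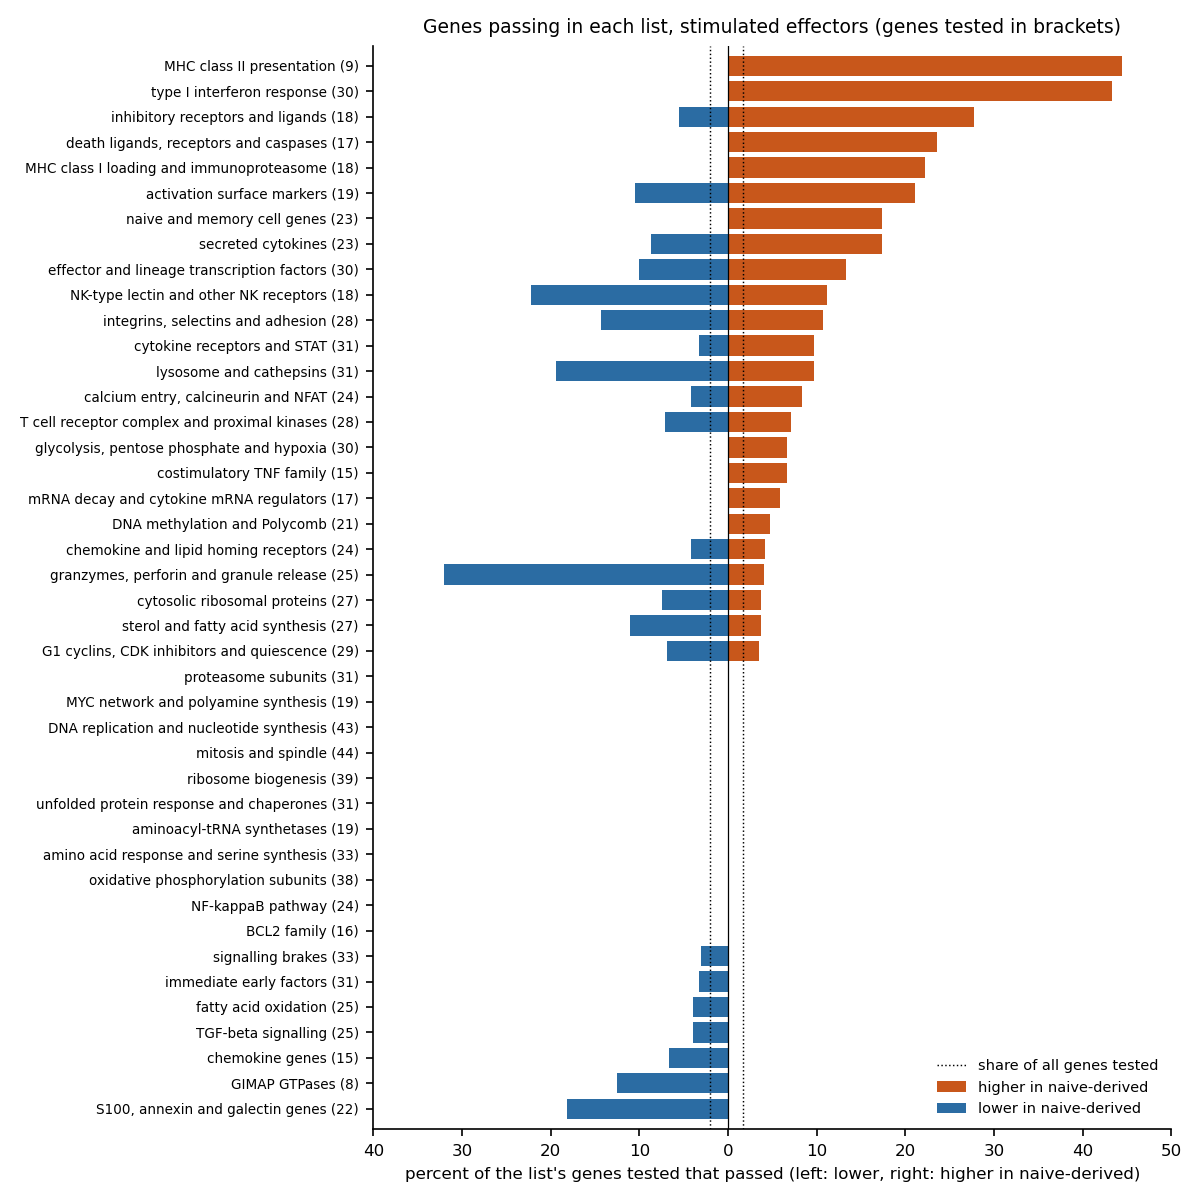
Share of each gene list that passed in stimulated effectors, in percent of its genes tested (number in brackets), with genes higher in naive-derived cells to the right and lower to the left. Dotted lines mark the share among all genes tested (1.69% higher, 2.01% lower); class II presentation (44.4%) and interferon genes (43.3%) reach farthest to the right, and granule genes (8 of 25) to the left.

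The last question was whether these differences depended on the final stimulation. Without it, 3819 genes (25.8%) differed between the origins, and 1946 or 1843 when naive-derived unstimulated array 1 or 2 was left out. Of the 548 genes, 366 passed there in the same direction (66.8% of the 548 and 9.58% of the 3819), 9 in the opposite direction, and 173 did not pass. The 2 comparisons share no array but share the fitted spread, and r between their differences was 0.466 over the 14795 genes, which are not independent of each other and is given as a description. The difference between the states was itself tested, and 401 genes (2.71%) passed, 55 of them among the 548 (10.0%). With the replicate block 26 genes passed, 16 of them among the 548. This count rested on single arrays: it was 0 without naive-derived unstimulated array 1 (limma; 2600 at an unadjusted p below 0.05) and 15 without array 2, 53, 36 and 210 without naive-derived stimulated arrays 1, 2 and 3, 75, 19 and 35 without memory-derived stimulated arrays 1, 2 and 3, and 187 and 1505 without memory-derived unstimulated arrays 1 and 2.

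The difference between states did not pass for Itgae, at 5.17 with and 4.77 without stimulation (adjusted p = 0.546), nor for Pdcd1 (2.01 and 2.65, 0.194), Eomes (-3.77 and -2.49, 0.105), Klrg1 (-2.84 and -3.85, 0.284) and Gzmd (-5.06 and -4.14, 0.73). A p that misses the threshold does not show that the differences were equal. Of 23 secreted cytokine genes, 7 had an origin difference that moved down with stimulation and 1 had one that moved up. Among all 14795 genes tested, 162 passed as moving down and 239 as moving up. The list counts come from the fit without the replicate block, and with the block 26 genes passed in all. Il2 differed by 3.07 with and by 7.87 without it, and Il10 by 3.09 and 6.94. The differences between states of -4.80 for Il2 (adjusted p = 0.0411) and -3.85 for Il10 (0.0432) did not pass with the replicate block (0.0904 and 0.0568).

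Of 30 interferon genes, 8 had an origin difference that moved up with stimulation and 0 had one that moved down, in the fit without the replicate block. Among all 14795 genes tested, 239 moved up and 162 down by the same test. Isg20 differed by 1.40 with and by -0.06 without it (difference between states 1.46, adjusted p = 0.017), and Gbp2 by 2.25 and 0.47 (1.78, 0.0258). Ifi47 changed sign, at 1.21 and -0.94 (2.15, 0.0146). Ifi27l2a, with the largest interferon difference, stood at 2.67 with and 2.45 without stimulation (0.781). The unstimulated counts of the list were 5 higher and 4 lower, with a median of -0.06, where 10.9% of all genes tested were higher and 14.9% lower. Some lists with 0 calls after stimulation had many without it: 35 of 39 ribosome biogenesis genes were higher in unstimulated naive-derived cells (median 1.20), 22 of 33 amino acid response genes were higher and 1 lower, and 18 of 44 mitosis genes were lower (median -0.70).

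**Figure D4:**
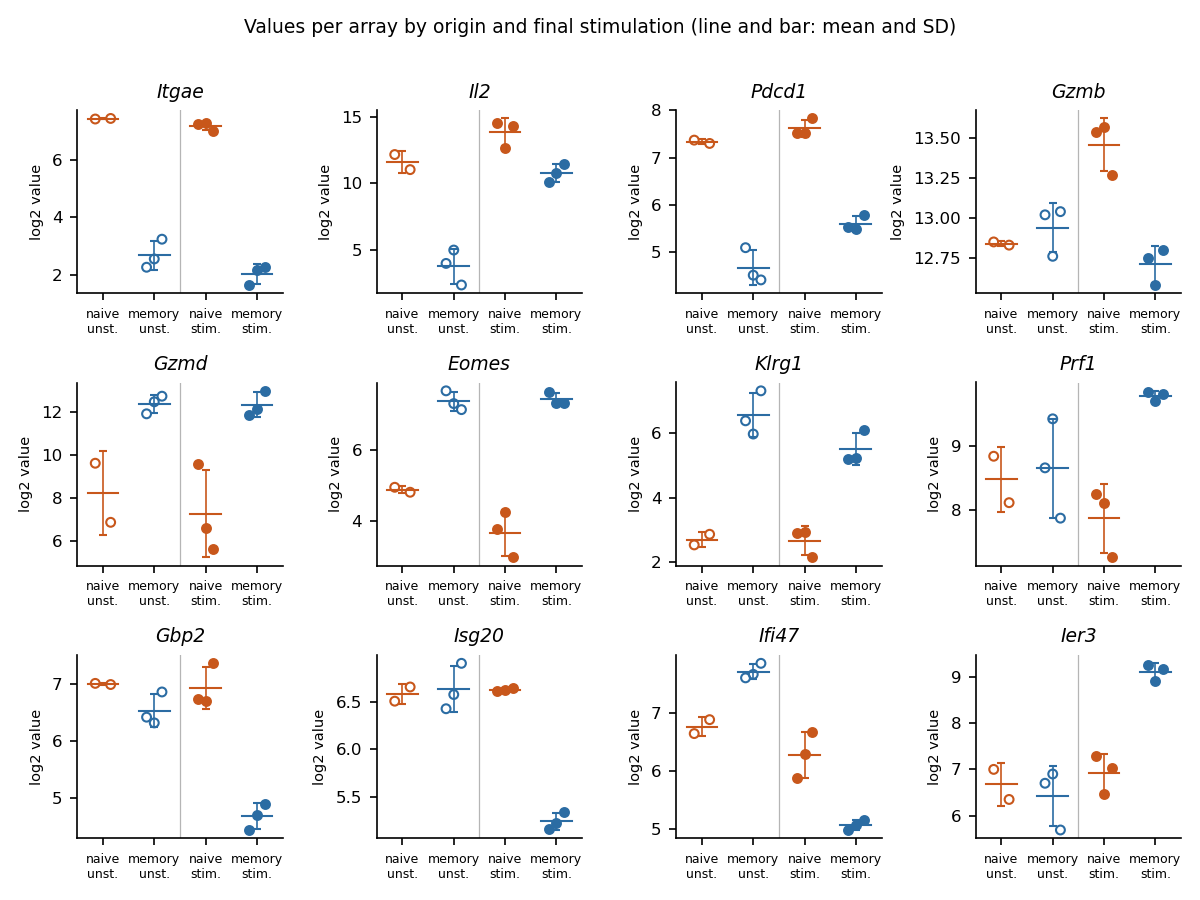
Log2 value per array of 12 genes in the 4 groups; open symbols are unstimulated and filled symbols stimulated arrays, orange is naive-derived and blue memory-derived, with lines at the mean and bars at the SD (n = 2 for naive-derived unstimulated, n = 3 otherwise). Itgae, Pdcd1, Gzmd, Eomes and Klrg1 are split by origin in both states, while Isg20 and Ier3 are split by origin after stimulation and differ by -0.06 and 0.25 without it.

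**Figure D5:**
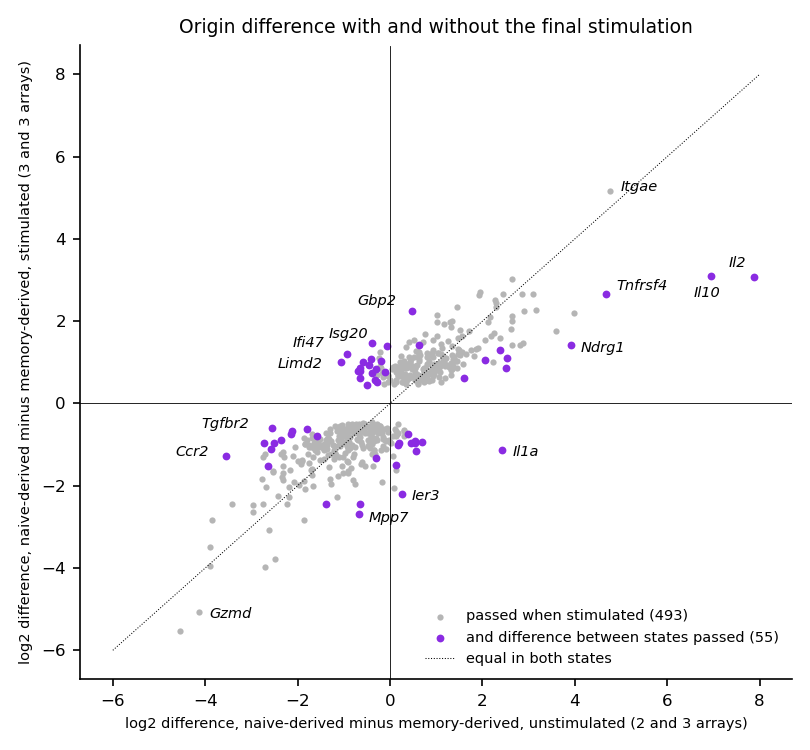
Origin difference (naive-derived minus memory-derived, log2) of the 548 genes that passed in stimulated effectors, without the final stimulation (horizontal) and with it (vertical); the dotted line marks equal differences. The 55 darker points are genes whose difference between states passed; Il2 and Il10 lie below the line on the right and Gbp2, Isg20, Ifi47 and Limd2 lie above it, Ifi47 and Limd2 at -0.94 and -1.07 on the horizontal axis.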

How the data were processed

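Expression arrays of 11 samples in 4 groups were used, as the log10 values deposited by the authors, per the series matrix. Affymetrix Expression Console is a tool that their processing notes list. The base was inferred from the hybridization controls, whose values rise with their known order of concentration, and was not stated in the sources used here. All arrays had the same sorted values, as quantile normalization gives, so a shift common to most genes cannot be seen. How probes were summarised was not given in the sources used here, and precision is limited by how many arrays there are.

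Multiplication by 3.32 gave log2 values. Of 45101 probe sets, 64 were controls, 34945 had 1 gene symbol, 932 several and 9160 none named here; 34741 of those with 1 symbol had their gene ID in the RefSeq gene table, and 0 symbols changed. Genes that exceeded the 40th percentile (1.54) on 2 or more arrays entered limma 3.58.1 (lmFit and eBayes, R 4.3.3), with a mean for each group over all 11 arrays, 7 residual and 3.86 prior degrees of freedom, and Benjamini-Hochberg adjustment over 14795 genes. Every adjusted p comes from this fit or an alternative. In simulated data 67% of 2-fold and 100% of 4-fold changes (100 genes each) were recovered with 10 false calls. Tables and plots used Python 3.11.15, pandas 2.3.3, numpy 2.4.6 and matplotlib 3.10.9.

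The labels describe 3 independent experiments, and the experiment number pairs the arrays; deviations of the stimulated arrays of the same experiment from their group means correlated at -0.0243, 0.0341 and 0.0943. The alternatives were no filter, a filter on the compared arrays, the 60th percentile (2.27), only the compared arrays in the fit, the experiment as a replicate block, scaling to hybridization controls, the mean of all probe sets, a trended variance and leaving out each array. Genes named were the 12 largest differences in each direction among called genes without overlap, up to 4 called members of each list with the largest differences (or the 2 with the smallest unadjusted p), a fixed set of markers, and the 4 largest differences between states in each direction; others named were chosen after their values were seen. The genes and lists were chosen with earlier results of these data known.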

Additional observations from a re-analysis of the deposited data

Results flagged for a closer look

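The difference between naive-derived and memory-derived effectors changed with the final stimulation for 401 genes (limma, test of the difference between states), and 25 of the genes followed here were among them. In brackets stand the origin difference with stimulation, that without it and the change between the states, all log2.

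Cytokine, receptor and immediate early genes had origin differences that moved down with stimulation: Il2 (3.07 with, 7.87 without; -4.80), Il10 (3.09 with, 6.94 without; -3.85), Tnf (0.07 with, 2.84 without; -2.77), Il1a (-1.12 with, 2.43 without; -3.55), Cxcl2 (-1.15 with, 0.56 without; -1.71), Tnfrsf4 (2.66 with, 4.67 without; -2.01), Ier3 (-2.19 with, 0.25 without; -2.43) and Cd9 (1.30 with, 2.39 without; -1.09). Il1a, Cxcl2 and Ier3 had origin differences above 0 without stimulation and below 0 with it. Without stimulation the difference passed for Il1a (adjusted p = 0.000443, limma). It did not pass for Cxcl2 (0.0858) and Ier3 (0.666), so their sign in that state is uncertain. Memory-derived unstimulated arrays lay below the level for dim signal for Il1a (1.16, 1.4 and 0.87) and Cxcl2 (1.3, 1.15 and 1.26). The size of the unstimulated difference and of the change is therefore uncertain for Il1a and Cxcl2. Origin differences also moved down with stimulation in Mpp7 (-2.69 with, -0.68 without; -2.0), Ndrg1 (1.41 with, 3.91 without; -2.50), Cars (0.20 with, 1.26 without; -1.06), Polr1a (0.26 with, 1.43 without; -1.17) and Slfn2 (0.61 with, 1.61 without; -1.0).

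Interferon, presentation and killing genes moved up: Gbp2 (2.25 with, 0.47 without; 1.78), Isg20 (1.40 with, -0.06 without; 1.46), Zbp1 (1.41 with, 0.62 without; 0.79), Ifi47 (1.21 with, -0.94 without; 2.15), Psmb9 (0.78 with, -0.66 without; 1.44), Psmb10 (0.74 with, -0.40 without; 1.14), Gzmb (0.76 with, -0.10 without; 0.86) and Fasl (0.58 with, -0.32 without; 0.90). Of these, Isg20, Ifi47, Psmb9, Psmb10, Gzmb and Fasl had opposite signs in the 2 states. Without stimulation the origin difference passed for Ifi47 and Psmb9 (adjusted p = 0.00745 and 0.0247, limma). It did not pass for Isg20 (0.819), Gzmb (0.677), Fasl (0.089) and Psmb10 (0.0683), so their sign in that state is uncertain. A smaller deficit of naive-derived cells after stimulation was found in Ccr2 (-1.28 with, -3.56 without; 2.28), Tgfbr2 (-0.60 with, -2.56 without; 1.95) and Gimap6 (-0.66 with, -2.13 without; 1.47), while Limd2 had opposite signs (1.01 with, -1.07 without; 2.07).

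The adjusted p of these changes was 0.00504 (Mpp7) to 0.0497 (Gzmb). With the replicate block 9 of the 25 passed: Mpp7, Tgfbr2, Ifi47, Gbp2, Il1a, Limd2, Isg20, Gimap6 and Ndrg1, at 0.0267 to 0.0474. The unstimulated naive-derived group has 2 arrays, so each value without stimulation rests on few samples.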

How the results depend on the processing

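Of the counts over all genes, 33 alternatives stayed within 1.5 times the count with all settings as chosen. Another 19 fell below that range and 3 rose above it. The 548 genes that differed in stimulated effectors numbered 440 to 745 under other processing, and 287 to 701 when 1 array was left out; 445 of them were among the 508 called with the replicate block and 510 among the 745 called with the stricter filter. The unstimulated count of 3819 was 2376 with only the compared arrays in the fit, and 1843 to 4161 when 1 array was left out. The count of 401 genes that differed between the states was 174 without a filter, 1064 with the filter at the 60th percentile, 26 with the replicate block, 155 with control scaling, 1102 with a trended variance, and 0 to 1505 when 1 array was left out (limma; 2600 at an unadjusted p below 0.05 in the case with 0). The cause of these shifts was not tested.

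Of 104 named genes that passed, 50 did so in every alternative and 15 did not with control scaling. Among called members of the lists, the replicate block ended 17 calls, of Il2, Foxp1, S100a10, H2-Oa, Idi1, Hmgcs1, Rps20, Rps2, Slfn2, Cbx7, Il1a, Cd28, Naglu, Scarb2, Selplg, Trim30a and Xaf1, and no other call of a gene named in the text. The sign turned for Tnf (-0.03 with control scaling, -0.10 without memory-derived stimulated array 1, -0.21 without naive-derived stimulated array 3, and up to 0.32 without other arrays), Il2ra (0.01 without naive-derived stimulated array 2, and down to -0.13 without others), Cars (-0.09 with the mean of probe sets) and Rps15 (0.07 with it), of which Rps15 alone had passed. Where other probe sets of a named called gene were tested, all had its sign in 43 of 56 genes, and 0 passed with the opposite sign. The other 13, with some probe set of the opposite sign, were Arsb, Id2, Ccr2, Anxa2, Gimap6, Tap1, H2-DMa, Rps20, Rps15, Btg1, Ms4a4b, Camk4 and Cbx7. With 3 arrays a group, differences under 2-fold are only partly detectable.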

Other observations

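Further genes with large differences lay outside the groups described. Several genes better known from other cell types were higher in naive-derived effectors: Ighm, the heavy chain of immunoglobulin M, stood at 4.07, 4.79 and 4.68 against 2.33, 2.46 and 2.79 (difference 1.98, adjusted p = 0.00659, limma), Sox4, a developmental transcription factor, at 3.16, 2.83 and 3.84 against 0.66, 1.54 and 1.73 (difference 1.97), and Epcam, an epithelial adhesion molecule, at 4.43, 4.44 and 4.45 against 2.79, 3.29 and 2.66 (difference 1.53). Hivep3, a zinc finger factor, was higher by 2.21 and Marcksl1, an actin-binding protein, by 2.13. No B cell list gene other than Ighm passed.

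Lower in naive-derived effectors were Epas1, the hypoxia factor HIF-2 alpha (2.39, 2.14 and 1.80 against 4.46, 4.36 and 4.87; difference -2.45, adjusted p = 0.000107), Cd55, which restrains complement (2.13, 2.00 and 1.61 against 3.39, 4.13 and 5.04; difference -2.27), Myo6, a myosin (2.14, 2.08 and 2.13 against 4.49, 4.62 and 4.59; difference -2.45), and Dsg2, a desmosomal cadherin (2.37, 1.76 and 1.77 against 4.03, 4.38 and 4.27; difference -2.26). In none of these genes did the groups overlap. They were chosen after their values were seen.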
